A study of Mus musculus with 62 samples.

Results

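The 39 genes described here code for proteins that copy DNA and prepare for the S phase of the cell cycle. They were taken by gene symbol from a list, out of 37620 genes in the table of read counts, and all 39 were found. They fall into 6 groups by role: the replicative helicase (9 genes), origin licensing and loading (5), polymerases and primase (5), the sliding clamp with its loader, RPA and Okazaki fragment maturation (7), nucleotide supply and uracil removal (6), and regulators and chromatin factors (7). Membership rests on the gene name alone and uses no measured value.

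Bulk RNA-seq covered 62 mouse samples. A total of 48 were ER-Hoxb8 cells of bone marrow in 24 clones, kept in RPMI medium with serum, antibiotics and stem cell factor (SCF). Each clone gave 1 library of granulocyte-monocyte progenitors (marked Plus) and 1 of monocytic cells (marked Minus). ER-Hoxb8 cells are progenitors held in division by a Hoxb8 protein fused to the hormone-binding part of the estrogen receptor, so each clone is a model line grown from immortalized progenitors, and the progenitors and monocytic cells alike carry the fusion. The other 14 libraries came from primary monocytes sorted from bone marrow by flow cytometry, with 2 libraries for each of 3 subsets (classical, intermediate, nonclassical) and for each of 4 groups named class 1, class 2, class 3 and class 4. The labels give neither strain nor age, neither the sorting gates nor what defines a class, and not what Plus and Minus stand for or how long the cells matured. Whether the replicates were separate animals or cultures is not stated, so a p-value here reflects the spread among these samples alone, which may be technical.

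Before S phase, the origin recognition complex, Cdc6 and Cdt1 load the ring of Mcm2 to Mcm7 onto DNA, and Cdc45 and the GINS complex turn that ring into the active helicase. Primase and the polymerases then copy both strands, with PCNA as the sliding clamp, while ribonucleotide reductase, thymidylate synthase and dUTPase supply the nucleotides. Many of these genes are switched on at the G1/S boundary by E2F factors, and dividing myeloid progenitors leave the cell cycle as they become mature monocytes.

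Promoter sequences are shown for 6 members because E2F is the best known regulator of this group. All 6 were lower in monocytic cells and hold the E2F letters defined below, so they do not stand for members without these letters. The sequences come from a RefSeq table of the build GRCm38.p6, which matched 33 of the 39 members and holds 250 bases before and 50 after each start site. Both strands were searched for TTTCCCGC, TTTCGCGC, TTTGCCGC and TTTGGCGC (called E2F letters here), for TTTGAA and TTCGAA (CHR letters, known from mitotic promoters) and for CCAAT. E2F letters stood in 13 of 33 matched members (39.4%), against 704 of 27025 genes in the whole table (2.6%) and 1 of 25 matched genes of a mitosis list. CHR letters stood in 5 of 33 members (15.2%), 19 of 25 mitosis genes (76%) and 21.7% of all genes, and CCAAT in 18 of 33 members (54.5%), 84% of the mitosis genes and 41.1% of all genes. E2F letters were in 13 of the 27 matched members that fell in monocytic cells and in 0 of the 6 that did not pass the test. Ung and Dut, which fell most, had none. A match describes the letters only, and a missing match says only that these letters are not in this window.

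The 160 bases before the start site follow, 5′ to 3′ on the gene's strand, with E2F letters of either strand in capitals. The stretches are chr8:75109349-75109508 (plus strand) for Mcm5, chr1:128359706-128359865 (minus strand) for Mcm6, chr11:98907991-98908150 (plus strand) for Cdc6, chr4:108579294-108579453 (plus strand) for Orc1, chrX:93632156-93632315 (minus strand) for Pola1 and chr2:72476059-72476218 (plus strand) for Cdca7.
Mcm5: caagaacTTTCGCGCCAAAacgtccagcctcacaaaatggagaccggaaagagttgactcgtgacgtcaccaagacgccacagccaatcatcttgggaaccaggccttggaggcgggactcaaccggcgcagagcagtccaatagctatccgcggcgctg
Mcm6: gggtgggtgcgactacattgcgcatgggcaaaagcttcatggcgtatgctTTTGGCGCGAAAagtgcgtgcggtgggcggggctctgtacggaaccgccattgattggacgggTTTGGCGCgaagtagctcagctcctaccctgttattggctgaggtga
Cdc6: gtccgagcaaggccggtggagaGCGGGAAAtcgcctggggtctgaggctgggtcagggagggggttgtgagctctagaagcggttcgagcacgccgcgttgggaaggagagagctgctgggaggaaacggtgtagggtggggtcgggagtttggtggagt
Orc1: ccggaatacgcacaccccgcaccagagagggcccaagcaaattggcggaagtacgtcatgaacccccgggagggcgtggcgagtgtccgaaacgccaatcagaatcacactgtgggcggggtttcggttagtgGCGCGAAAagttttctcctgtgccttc
Pola1: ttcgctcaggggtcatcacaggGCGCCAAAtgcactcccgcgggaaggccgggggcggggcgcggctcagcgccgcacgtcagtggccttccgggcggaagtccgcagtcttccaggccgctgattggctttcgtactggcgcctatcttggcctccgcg
Cdca7: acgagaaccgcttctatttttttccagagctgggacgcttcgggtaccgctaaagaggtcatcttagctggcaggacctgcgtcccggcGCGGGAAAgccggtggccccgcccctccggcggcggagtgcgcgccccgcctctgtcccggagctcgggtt
Counted so that −1 is the last base before the start, matches begin at −153 and −149 in Mcm5 and at −110, −106 and −47 in Mcm6. In each of these genes the first 2 matches overlap on opposite strands. The single match begins at −138 in Cdc6, −27 in Orc1, −138 in Pola1 and −71 in Cdca7.

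Total counts (M for mega-counts) ran from 0.362 to 47.3 M in the progenitor libraries, from 1.83 to 34.5 M in the monocytic libraries and from 21.2 to 35.0 M in the primary libraries. The lowest total was that of the clone 21 progenitors, and monocytic libraries of clones 15 to 25 were shallower (1.83 to 9.12 M) than those of clones 1 to 13 (22.9 to 34.5 M). The 11 progenitor markers listed for a check of the labels were Kit, Cd34, Flt3, Myb, Gata2, Sox4, Meis1 and the granule genes Mpo, Elane, Prtn3 and Ctsg. They summed to 10447 to 22785 CPM in progenitors and to 131 to 24623 CPM in monocytic cells, and the 15 monocyte markers to 1944 to 4695 and 5728 to 63758 CPM. CPM is the read count scaled to library size with TMM factors, here over all 62 libraries. Medians of the monocyte marker sum were 2808 and 32895 CPM, and those of Lyz2 alone 227 and 27031 CPM. All 11 and all 15 were detected in both states, and the progenitor marker ranges of the states overlap. The 12 neutrophil markers, all detected in both states, summed to 54.9 to 8075 CPM in progenitors (median 130) and to 518 to 196614 CPM in monocytic cells (median 60883).

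Replication genes were lower in monocytic cells than in the progenitors of the same clone. Of the 39 members, 32 fell and 0 rose (edgeR quasi-likelihood test paired by clone, adjusted p under 0.05), where 40.1% of the 11614 genes tested fell and 38.5% rose. The median log2 fold change of the members was −1.16, against −0.02 over all genes tested. By role, 8 of 9 helicase genes, 5 of 5 licensing genes, 5 of 5 polymerase and primase genes, 6 of 7 clamp and loader genes, 5 of 6 genes of nucleotide supply and uracil removal and 3 of 7 regulators fell. A fall of at least 2-fold was seen in 23 members (18.8% of all genes), and 9 were lower in all 24 clones (10.4% of all genes): Mcm6, Tyms, Orc6, Rfc4, Rfc5, Prim1, Chek1, Ung and Dut. Neutrophil markers moved between the states as well: 11 of 11 tested rose, with a median of 8.49, and their part in the members' fall was not tested. In bulk RNA, fewer cells in S phase and less RNA per cell cannot be told apart.

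**Figure D1:**
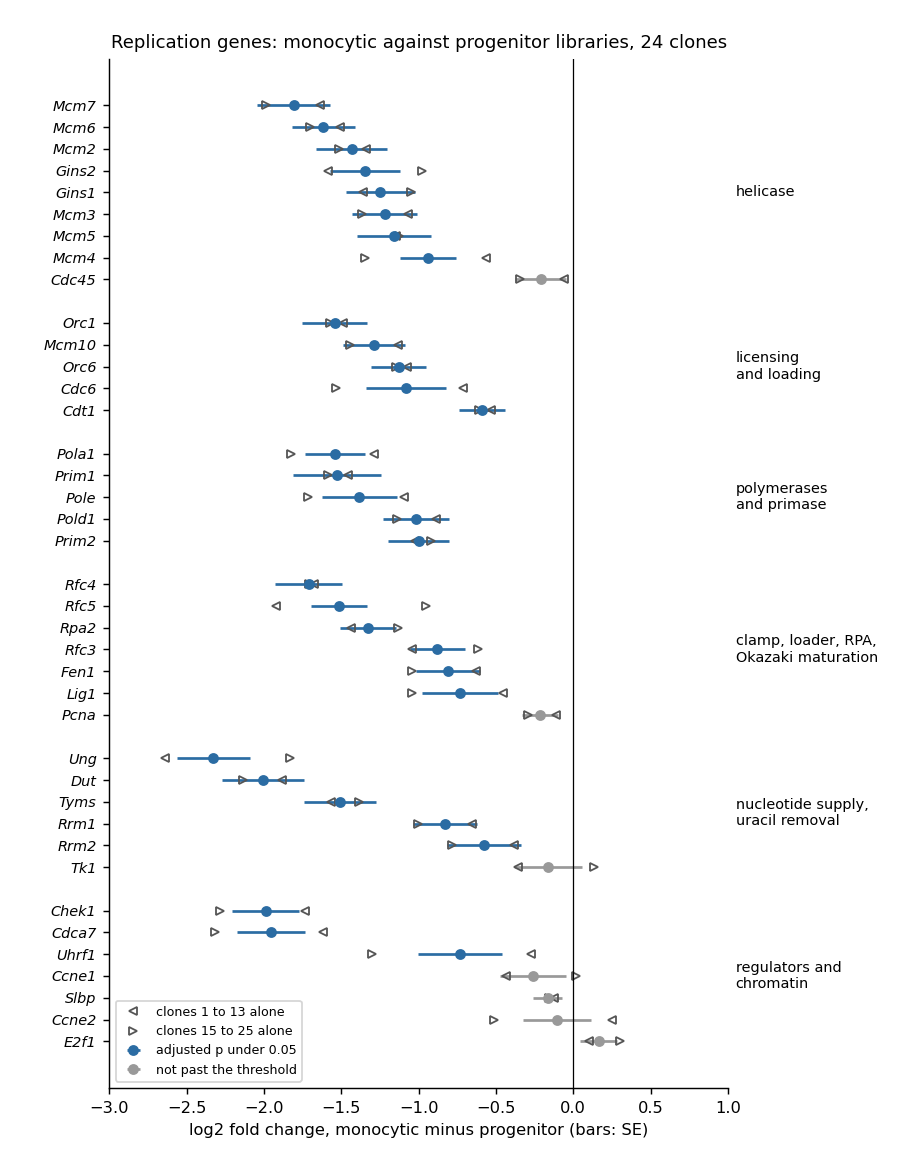
Log2 fold change of each of the 39 members between monocytic and progenitor libraries of 24 clones (points, with bars of 1 SE), grouped by role, with open triangles for clones 1 to 13 and clones 15 to 25 alone. The 32 blue points passed the test, all to the left of 0, and the 7 grey points did not.

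Among helicase genes the ring subunits Mcm7 and Mcm6 moved furthest. Mcm7 (ENSMUSG00000029730) ran from 287 to 530 CPM in progenitors (median 423) and from 15.2 to 360 CPM in monocytic cells (median 142). Of the 24 monocytic libraries, 23 lay below every progenitor library, and the log2 fold change was −1.81 (SE 0.234, adjusted p = 7.38e-08). Mcm6 ran from 466 to 1040 CPM (median 775) and from 34.6 to 568 CPM (median 276), a change of −1.61 (SE 0.207, adjusted p = 5.91e-08) with 22 monocytic libraries below all progenitors. Cdc45, the partner of the ring in the active helicase, had medians of 75.4 and 77.7 CPM and overlapping ranges (62.1 to 150.1 and 13 to 149 CPM). Its log2 fold change of −0.21 (SE 0.167) did not pass (adjusted p = 0.248).

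Licensing and initiation genes fell as a group. Orc1, the largest origin recognition subunit, went from a median of 20.9 CPM (10.0 to 36.9) to 7.39 CPM (1.15 to 22.1), a change of −1.54 (SE 0.209, adjusted p = 1.63e-07). Mcm10, an initiation factor that binds the helicase, went from 90.2 CPM (46.9 to 153) to 44.1 CPM (9.45 to 84.0), a change of −1.29 (SE 0.2, adjusted p = 1.45e-06). For both genes the ranges of the states overlapped, with 18 and 13 monocytic libraries below all progenitors. The smallest fall of the group was that of Cdt1, the loader of the helicase ring, at −0.59 (SE 0.148).

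Among polymerase genes, Pola1, the catalytic subunit of polymerase alpha, fell by 1.54 on the log2 scale (SE 0.195, adjusted p = 4.79e-08), from a median of 103 CPM (45.1 to 132) to 37.9 CPM (5.0 to 78.7). Prim1, the catalytic primase subunit, was lower in 24 of 24 clones, with medians of 98.8 CPM (70.1 to 144) and 44.2 CPM (2.16 to 128) and a change of −1.53 (SE 0.284, adjusted p = 2.09e-05). Prim1 spread more widely than any other member among monocytic cells, with an SD of 1.58 log2 CPM against 0.27 in progenitors. Pole, Pold1 and Prim2 fell by 1.38, 1.02 and 1.0.

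The clamp loader subunits Rfc4 and Rfc5 fell in every clone, while the clamp itself did not pass. Rfc4 went from a median of 81.7 CPM (63.6 to 138) to 32.6 CPM (3.84 to 67.0), a change of −1.71 (SE 0.216, adjusted p = 4.82e-08). Rfc5 went from 132 CPM (61.5 to 236) to 50.2 CPM (11.7 to 98.2), a change of −1.51 (SE 0.18, adjusted p = 1.53e-08). Pcna (ENSMUSG00000027342) had medians of 290.1 CPM (198 to 398) and 249 CPM (61.2 to 491) and was lower in 12 of 24 clones. Its change of −0.22 (SE 0.117) did not pass (adjusted p = 0.0925). The flap endonuclease Fen1, the ligase Lig1 and the single-strand binding subunit Rpa2 fell by 0.81, 0.73 and 1.33.

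The 2 members that fell most, Ung and Dut, code for enzymes that keep uracil out of DNA. Ung, which removes uracil from DNA, went from a median of 54.4 CPM (22.2 to 71.1) to 11.8 CPM (0.9 to 25.9), a change of −2.33 (SE 0.234, adjusted p = 6.72e-10). Dut, the dUTPase, went from 269 CPM (187 to 457) to 91.3 CPM (3.46 to 215), a change of −2.005 (SE 0.264, adjusted p = 9.6e-08). Both were lower in 24 of 24 clones, with 22 monocytic libraries below all progenitors. Tyms fell by 1.51, Rrm1 by 0.83 and Rrm2, the small subunit of ribonucleotide reductase, by 0.58 (adjusted p = 0.0302), Rrm2 in 14 of 24 clones. Tk1, the salvage kinase of thymidine, did not pass (−0.16, adjusted p = 0.497).

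Regulators split. Chek1, the kinase of the replication checkpoint, went from a median of 55.0 CPM (40.4 to 88.6) to 15.4 CPM (1.73 to 44), a change of −1.99 (SE 0.215, adjusted p = 2.57e-09). Cdca7, a chromatin factor, went from 194 CPM (157 to 270.2) to 59.9 CPM (13.4 to 199), a change of −1.96 (SE 0.219, adjusted p = 5.16e-09). In each of them 23 monocytic libraries lay below all progenitors. Uhrf1, which carries DNA methylation through replication, fell by 0.73 (adjusted p = 0.0169), with values of −0.27 in clones 1 to 13 (adjusted p = 0.328, not past the threshold) and −1.30 in clones 15 to 25. The cyclins Ccne1 (−0.26, adjusted p = 0.26) and Ccne2 (−0.11, adjusted p = 0.668) and the histone mRNA factor Slbp (−0.16, adjusted p = 0.112) did not pass. E2f1 was the only member with a positive value: medians of 67.5 CPM (46.8 to 107) and 80.7 CPM (28.1 to 161), a change of 0.17 (SE 0.12, adjusted p = 0.205), higher in 17 of 24 clones.

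Other genes of the cell cycle were counted from lists of function. Of 40 further replication genes 29 fell and 1 rose, with a median of −0.79. Shmt1 (−2.39), a folate enzyme of thymidylate supply, and Pold2 (−2.27), a subunit of polymerase delta, fell furthest, and Samhd1, which breaks down deoxynucleotides, rose by 1.99. Of 20 genes of homologous recombination and checkpoints 19 fell and 0 rose (median −1.05), among them the nuclease Exo1 (−1.79). Of 29 mitosis genes 15 fell and 0 rose (median −0.44), led by the cyclin Ccnb1 (−1.19) and the kinase Ttk (−0.93).

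A list of 24 genes, drawn up for G1 cyclins and the E2F and Rb families, also held Mycn, a relative of Myc that belongs to none of these. Of the 24, 11 fell and 5 rose, beside the 40.1% and 38.5% of all genes given above. Mycn (−7.35, with some monocytic libraries at 0) and the cyclin Ccnd2 (−3.05) fell, while E2f2 (3.30) and the cyclin Ccnd3 (1.48) rose. Of 14 tested cell cycle inhibitors 11 rose and 2 fell (median 1.27), with Btg2 (3.88) and Mxd1 (3.69), an antagonist of Myc, leading the increases and Trp53 (−1.08) and Mxd4 (−0.38) the decreases.

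Clones differed widely in how far the members fell. The mean log2 CPM over the 39 members ran from 6.42 to 6.99 in progenitors (median 6.82) and from 3.35 to 6.96 in monocytic cells (median 5.93), and 22 of 24 monocytic means lay below the lowest progenitor mean. The difference within a clone ran from −3.25 to 0.14 (median −0.83) and was below 0 in 23 of 24 clones. Clone 9 was the exception, at 6.83 in progenitors and 6.96 in monocytic cells. Clones 15, 21, 20, 1 and 5 fell by more than 2 on the log2 scale, to 3.35, 3.51, 3.77, 4.27 and 4.72. The difference of the mitosis genes ran from −2.68 to 0.90 (median −0.23), and in 24 of 24 clones the members' difference lay below it.

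**Figure D2:**
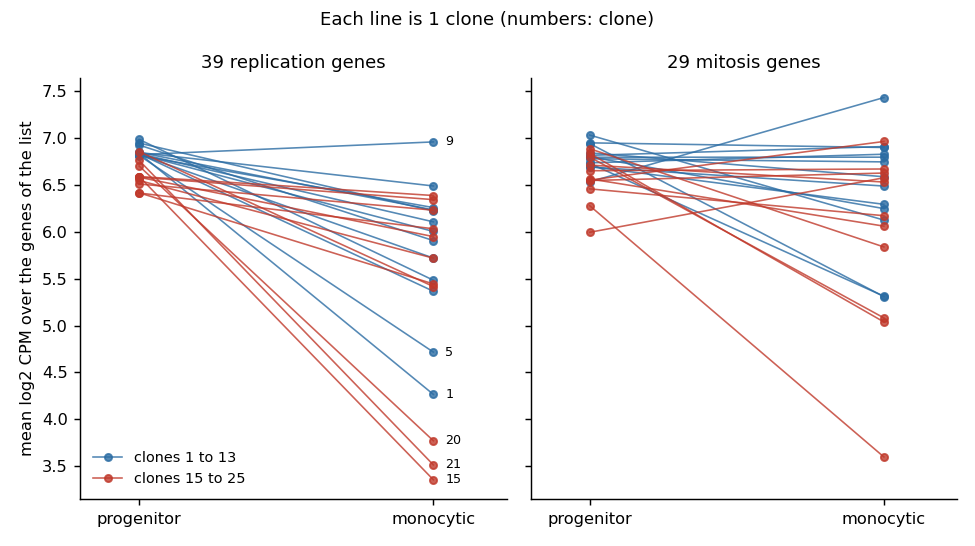
Mean log2 CPM of the 39 members (left) and of 29 mitosis genes (right) in the progenitor and monocytic library of each clone, with clones 1 to 13 in blue and clones 15 to 25 in red. Progenitor means of the members lie within 6.42 to 6.99, while monocytic means reach from 3.35 (clone 15) to 6.96 (clone 9).

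The members varied together among the monocytic libraries. Each had a larger SD of log2 CPM among monocytic than among progenitor libraries (39 of 39), with medians of 1.08 and 0.33. As a description over 24 libraries of uneven depth, a member's correlation with the mean of the other 38 had a median of 0.95 in monocytic cells, from 0.53 for Slbp to 0.99 for Mcm7. In progenitors the median was 0.55, from −0.55 for Cdca7 to 0.95 for Slbp. With each clone set centred on its own mean, the medians were 0.95 and 0.45. No matching SDs or correlations over all genes are given here, so neither trait is shown to be particular to the members.

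The sum of the progenitor markers, which include 4 granule genes, also varied along this range. On the scale of the 48 clone libraries these markers summed to 137, 260, 213, 622 and 1194 CPM in the monocytic libraries of clones 15, 21, 20, 1 and 5, where the members were lowest. They summed to 8518 CPM in clone 9, 8397 CPM in clone 3, 25760 CPM in clone 22 and 12763 CPM in clone 17, where the members were highest. These larger sums rest mostly on the granule genes Mpo, Elane, Prtn3 and Ctsg. On the scale of all 62 libraries, no monocytic library exceeded 116 CPM of Cd34, 1.92 of Flt3, 283 of Kit or 673 of Myb. Clone 25 had 369 CPM of these markers beside a member mean of 5.42, so the order is not strict. Neutrophil markers showed no such order, with 21463 and 170431 CPM in clones 15 and 21 and 542 and 200148 CPM in clones 22 and 9. The part of these other cells or states in the member levels was not tested.

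Clones 1 to 13 and clones 15 to 25, which differ in depth, gave similar counts when fitted alone. In each, 29 members fell, 27 of them in both, where 39.3% and 29.9% of all genes fell. Rrm2, called over all clones, passed in neither set alone (adjusted p = 0.174 and 0.0979 by edgeR). The mean log2 CPM of the members was lower in progenitors of clones 15 to 25 (median 6.58) than of clones 1 to 13 (median 6.84). The change differed between the sets for 1 of 39 members, against 23.7% of all genes. This was Rfc5, whose medians were 164 CPM in progenitors and 46.5 CPM in monocytic cells of clones 1 to 13, and 88.5 and 58.6 CPM in clones 15 to 25. Its change was −1.92 (SE 0.198) in the former and −0.95 (SE 0.224) in the latter, a difference of 0.95 (SE 0.306, adjusted p = 0.0258). Differences for Mcm4 (−0.81, adjusted p = 0.0748), Uhrf1 (−1.04, adjusted p = 0.145) and Ung (0.83, adjusted p = 0.161) did not pass. Over the members the median difference was −0.21, or −0.12 with DESeq2 size factors. Set and depth cannot be told apart in the monocytic libraries, where median depth was 26.0 and 3.18 M. Progenitor medians were 14.7 and 12.5 M.

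The title of the series asks about rigid differences between monocytes, and the clone pairing lets each member be followed from progenitor to monocytic cell. The edgeR F test over the clone terms looks for a shift that both libraries of a clone share. It called 1 of 39 members, Ccne2, against 11.7% of all genes. With 1 library per clone and state, differences in how far a clone fell enter the residual of this test, which does not measure them. Ccne2 ran from 9.27 to 55.9 CPM in progenitors (median 30.7) and from 3.03 to 118 CPM in monocytic cells (median 23.5), with an adjusted p = 0.0498 that became 0.102 without clone 21. Within clones 1 to 13 alone it was 0.9999 and within clones 15 to 25 alone 0.466. Slbp (adjusted p = 0.0853), Pcna (0.158) and Gins2 (0.361) came next and did not pass.

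The progenitor level correlated with the monocytic level of the same clone for 2 of 39 members, against 8.27% of the 11614 genes for which this was computed. For Pcna, r was 0.56 (permutation p = 0.0028, or 0.0392 adjusted) and rho 0.74 (permutation p = 8e-05, or 0.00852 adjusted), with r of 0.44 in clones 1 to 13, −0.05 in clones 15 to 25 and 0.56 without the 2 farthest clones. For Ccne2, r was 0.57 (permutation p = 0.00358, or 0.0453 adjusted) and rho 0.61 (permutation p = 0.00192, or 0.0514 adjusted), with 0.22 and 0.31 in the sets and 0.42 without the 2 farthest clones. Neither held within the sets: centred on the set, r was 0.12 for Pcna (permutation p = 0.572, adjusted p = 0.859) and 0.26 for Ccne2 (permutation p = 0.23, adjusted p = 0.633). Without clone 21, adjusted p was 0.0699 and 0.124, which leaves 0 members. Cdt1 (r −0.53, rho −0.24; permutation adjusted p = 0.0838 and 0.577) and Slbp (r 0.51, rho 0.42; permutation adjusted p = 0.0845 and 0.248) did not pass. The median r over members was 0.03, against 0.19 over all genes.

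Levels were also set side by side over all 62 libraries on 1 TMM scale, with no test, since culture and sort differ between clones and primary cells. The mean log2 CPM over the members was 6.71 ± 0.19 in progenitors and 5.51 ± 0.98 in monocytic cells (SD, n = 24 each). It was 6.21 and 6.33 in the libraries of classical, 5.55 and 6.16 of intermediate, and 4.84 and 4.57 of nonclassical monocytes. In class 1 it was 5.90 and 5.86, in class 2 3.59 and 3.71, in class 3 6.66 and 6.5, and in class 4 6.41 and 6.40. Nonclassical monocytes and class 2 were thus the lowest primary groups, and class 3 and class 4 the highest.

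**Figure D3:**
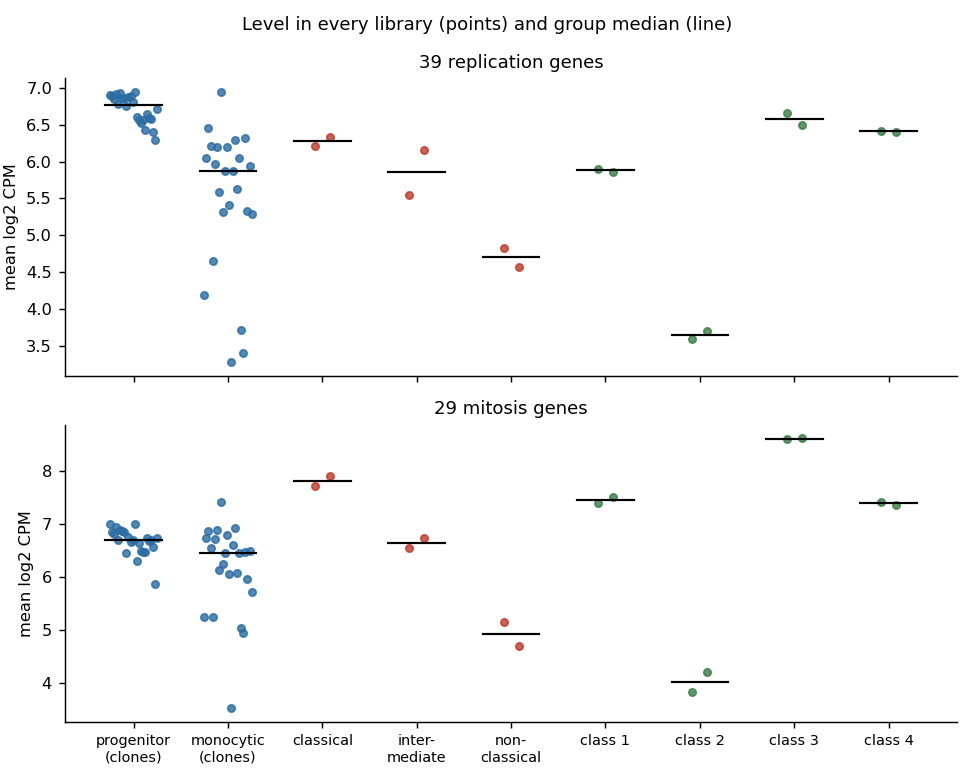
Mean log2 CPM of the 39 members (top) and of 29 mitosis genes (bottom) in each of the 62 libraries, by group, with a line at the group median. Class 2 lies lowest for the members (3.59 and 3.71), below all primary libraries of the other groups.

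Mcm2, a subunit of the helicase ring, had median levels of 359 CPM in progenitors (204 to 494), 235 in class 3, 186 in class 4, 157 in classical monocytes, 155 in monocytic cells (16.5 to 348), 147 in class 1 and in intermediate monocytes, 80.7 in nonclassical monocytes and 21.7 in class 2. Its intermediate libraries stood at 93.3 and 201 CPM, a range that takes in class 4, classical monocytes and class 1 and overlaps that of monocytic cells. Class 4 (183 and 189 CPM) and classical monocytes (155 and 159 CPM) did not overlap. Mcm5, another ring subunit, ran from 488 CPM in class 3 through 385 in progenitors, 371 in classical monocytes, 308 in class 1, 285 in class 4, 215 in monocytic cells and 175 in intermediate monocytes to 76.9 in nonclassical monocytes and 52.3 in class 2. Its nonclassical libraries (51.4 and 102 CPM) and class 2 libraries (49.2 and 55.5 CPM) overlapped.

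Pcna ran from 299 CPM in progenitors through 236 in monocytic cells, 211 in classical monocytes, 198 in class 4, 179 in class 3, 178 in class 1, 160 in intermediate and 144 in nonclassical monocytes to 93.9 in class 2. Apart from class 2, its primary libraries lay between 139 and 221 CPM. Rrm2 ran from 624 CPM in class 3 through 509 in class 4, 399 in classical monocytes, 355 in class 1, 262 in progenitors, 238 in intermediate monocytes and 166 in monocytic cells to 56.1 in nonclassical monocytes and 30.2 in class 2. Ccne1, the cyclin that opens S phase, ran from 64.4 CPM in class 4 through 48.7 in class 3, 45.5 in classical monocytes, 38.9 in class 1, 35.4 in intermediate monocytes, 25.4 in progenitors, 22 in monocytic cells and 18.9 in nonclassical monocytes to 4.52 in class 2. Ranges of clone libraries for Rrm2 (138 to 304 CPM in progenitors, 9.52 to 598 in monocytic cells) and Ccne1 (11.9 to 32.1 and 2.48 to 40.0) overlapped between the states.

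**Figure D4:**
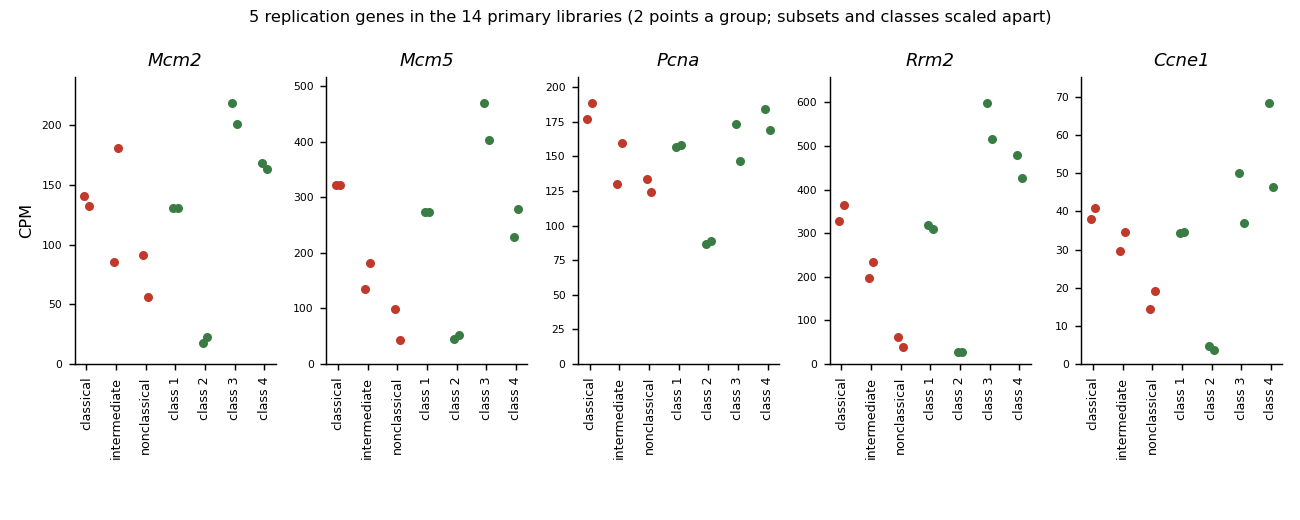
CPM of Mcm2, Mcm5, Pcna, Rrm2 and Ccne1 in the 14 primary libraries, 2 points a group, with subsets and classes each scaled on their own (axes start at 0). Class 2 is the lowest class for each of the 5 genes, with Pcna at 86.5 and 88.7 CPM against 146 to 174 in class 1 and class 3.

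Nonclassical monocytes, the patrolling subset, had less replication gene RNA than classical monocytes. Of the 39 members 7 were lower and 0 higher (edgeR quasi-likelihood test, adjusted p under 0.05), against 2.9% of 13944 genes lower and 2.91% higher, and both nonclassical libraries lay below both classical libraries for 38 members (32.0% of all genes). The median log2 fold change was −1.39, against 0.11 over all genes tested. Rrm2 stood at 62.4 and 39.6 CPM in nonclassical and 329 and 364 CPM in classical monocytes, a change of −2.76 (SE 0.285, adjusted p = 0.0144). Cdc45 stood at 11.6 and 12.1 against 72.1 and 75.3 CPM, a change of −2.64 (SE 0.236, adjusted p = 0.0118). In neither gene did the groups overlap.

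Pole, the catalytic subunit of polymerase epsilon, stood at 6.71 and 8.44 CPM against 40.8 and 36.6 CPM, a change of −2.35 (SE 0.398, adjusted p = 0.0424, or 0.0586 with the replicate number as a block). Rrm1 stood at 74.2 and 69.1 against 307 and 308 CPM, a change of −2.10 (SE 0.158, adjusted p = 0.00872). The other 3 called members were Cdca7, Mcm6 and Tk1. The count rests on few libraries: it was 0 without either classical library and 3 without nonclassical replicate 2, and DESeq2 called 25, all lower, where it called 11.9% of all genes lower. Of 29 mitosis genes 23 were lower (median −2.52). Dendritic cell markers summed to 24646 to 25446 CPM in nonclassical and 808 to 847 CPM in classical monocytes. Most of this was Cd74 (medians of 23661 and 608 CPM). Xcr1 and Bst2 overlapped, Ccr9 was lower in nonclassical monocytes, and the other listed dendritic cell markers were higher. B cell progenitor markers summed to 1769 to 1869 and 38.4 to 40.4 CPM, with every B cell marker detected. T and NK cell markers summed to 57.1 to 168 and 7.55 to 10.9 CPM. Their part in the result was not tested.

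Intermediate monocytes differed from classical ones in 0 of 39 members by edgeR (2.11% of all genes), with 4 at an unadjusted p under 0.05 (21.6% of all genes) and 4 called lower by DESeq2 (9.96% of all genes). Ccne2 stood at 17.3 and 29 against 55.3 and 60.2 CPM (−1.32, SE 0.361, adjusted p = 0.132 by edgeR), Cdc45 at 27.7 and 31.5 against 72.1 and 75.3 CPM (−1.32, SE 0.225, adjusted p = 0.061) and Mcm5 at 136 and 182 against 321 and 323 CPM (−1.02, SE 0.419, adjusted p = 0.247). The groups did not overlap in these 3 genes, while 21 members overlapped, 17 were lower in both libraries (31.8% of all genes) and 1 was higher (31.5%), and 33 of 39 changes were negative (28 with DESeq2 size factors). The 2 intermediate libraries stood apart, with progenitor markers at 4703 and 13307 CPM against 849 and 1181 CPM in classical monocytes. Mpo made up most of this in intermediate monocytes (3126 to 8511 CPM). Dendritic cell markers summed to 16219 to 17614 CPM in intermediate and 808 to 847 CPM in classical monocytes. Most of this was Cd74 (medians of 15889 and 608 CPM). Ccr9 and Siglech overlapped, and the other listed dendritic cell markers were higher in intermediate monocytes. Neutrophil markers summed to 5538 to 5751 and 1263 to 1659 CPM. B cell progenitor markers summed to 435 to 437 and 38.4 to 40.4 CPM, T and NK cell markers to 134 to 509.5 and 7.55 to 10.9 CPM, and erythroid markers to 70.1 to 120.0 and 17.5 to 18.2 CPM. Monocyte markers summed to 14127 to 14808 CPM in intermediate and 48275 to 52050 CPM in classical monocytes, mostly Lyz2 (medians of 8755 and 36103 CPM). Nr4a1 (medians of 1588 and 481 CPM), Ace, Treml4 and Cd36 were higher in intermediate monocytes, and the other listed monocyte markers were lower. The part of these markers in the result was not tested.

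Nonclassical against intermediate monocytes gave 0 of 39 members by edgeR (0.0% of all genes), with 20 at an unadjusted p under 0.05 (12.3% of all genes) and 17 called lower by DESeq2 (4.32% of all genes). The median was −1.22. Gins1, a GINS subunit, stood at 5.13 and 0 against 11.7 and 24.9 CPM (−2.83, SE 2.04, adjusted p = 0.681 by edgeR), Chek1 at 4.65 and 4.24 against 5.21 and 37.6 CPM (−2.27, SE 0.984, adjusted p = 0.46) and Cdc6 at 18.3 and 1.09 against 42.4 and 46.1 CPM (−2.19, SE 1.19, adjusted p = 0.542). The groups did not overlap in these genes, but libraries of 1 group differed by several fold. Progenitor markers summed to 413 to 771 CPM in nonclassical and 4703 to 13307 CPM in intermediate monocytes, mostly Mpo in the latter (3126 to 8511 CPM). Sox4 went the other way (65.0 to 112 against 48.6 to 51.2 CPM), and Meis1 overlapped. B cell progenitor markers summed to 1769 to 1869 and 435 to 437 CPM. The part of these markers was not tested. These 3 subset comparisons share libraries and are not independent of each other.

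Class 2 had the least replication gene RNA of the 4 classes. Against class 1, 37 of 39 members were lower and 0 higher (5.95% of 13686 genes lower, 3.34% higher; edgeR quasi-likelihood test, adjusted p under 0.05), with a median of −2.23 against 0.00 over all genes. Orc1 stood at 0.598 and 0.243 CPM in class 2 (24 counts in all) and 5.74 and 5.40 CPM in class 1, a change of −3.67 (SE 0.515, adjusted p = 0.00377). Rrm2 stood at 28.4 and 28.1 against 320 and 310.2 CPM, a change of −3.48 (SE 0.139, adjusted p = 1.86e-05). The groups lay far apart in both genes.

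Prim1 stood at 3.24 and 5.11 against 40.5 and 34.1 CPM, a change of −3.17 (SE 0.263, adjusted p = 0.000229). Tk1 stood at 7.08 and 7.5 against 60.6 and 69.7 CPM, a change of −3.16 (SE 0.155, adjusted p = 2.03e-05). Of the members, E2f1 (−0.78, adjusted p = 0.0583) and Ung (0.36, adjusted p = 0.854, with 38 counts in class 2 and 28 in class 1) did not pass, and Pcna fell by 0.85. Without 1 library of either class the count was 31 to 33. All 29 mitosis genes tested were lower as well (median −3.47). Progenitor markers summed to 187 to 211 CPM in class 2 and 871 to 1184 CPM in class 1, while Flt3 (57.9 to 88.8 and 40.7 to 72.2 CPM) and Meis1 overlapped. T and NK cell markers summed to 1.71 to 3.26 and 75.8 to 108 CPM, with Ncr1 and Gzma at 0 in class 2. Their part in the result was not tested.

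**Figure D5:**
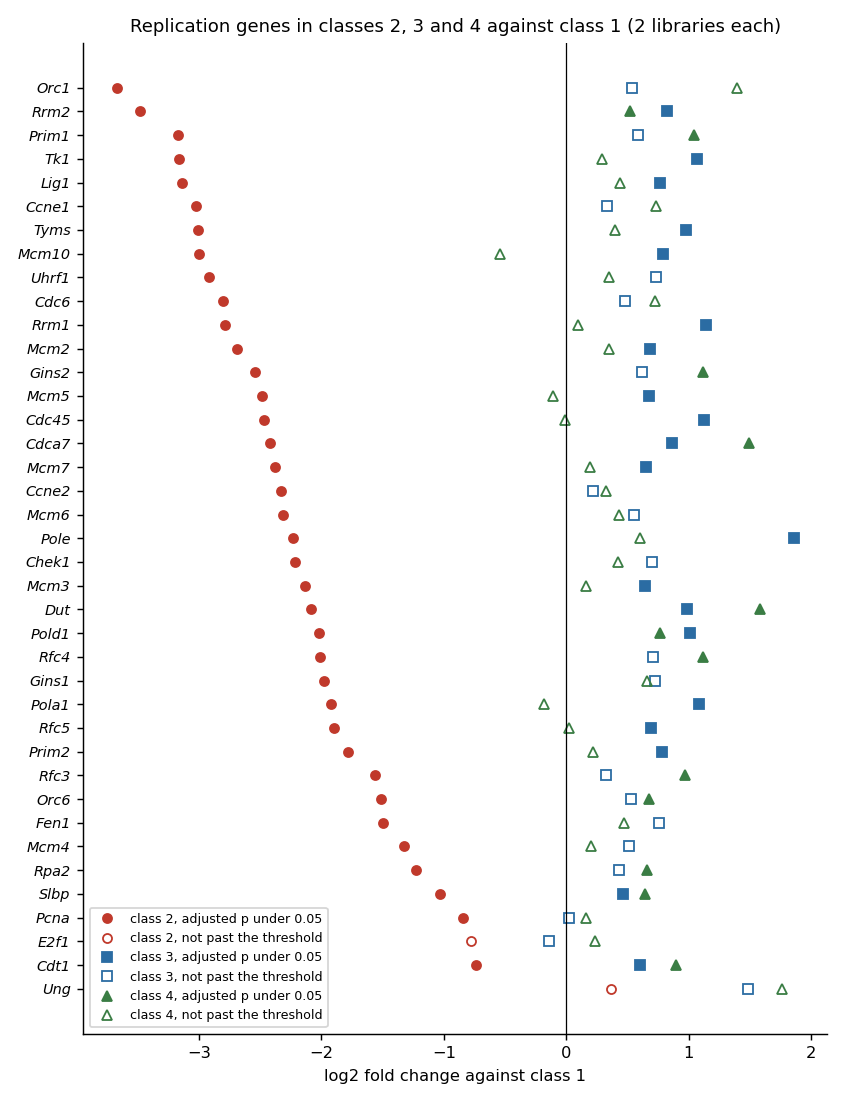
Log2 fold change of each member in class 2, class 3 and class 4 against class 1, with filled symbols for adjusted p under 0.05; the 3 comparisons share the 2 class 1 libraries. Class 2 lies left of 0 for 38 members, class 3 right of 0 for 38 and class 4 right of 0 for 35.

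Class 3 lay above class 1. Of the members 20 were higher and 0 lower (5.44% of all genes higher, 7.94% lower), with a median of 0.69. Pole stood at 44.5 and 46.5 against 9.72 and 15.4 CPM (1.86, SE 0.416, adjusted p = 0.0236 by edgeR) and Rrm1 at 584 and 501 against 249 and 242 CPM (1.14, SE 0.201, adjusted p = 0.00875). Cdc45 stood at 95.7 and 95.5 against 46.6 and 41.0 CPM (1.13, SE 0.192, adjusted p = 0.00777 by edgeR) and Pola1 at 87.6 and 82.6 against 46.0 and 34.5 CPM (1.08, SE 0.21, adjusted p = 0.0133). No groups overlapped in these 4 genes, but the count fell to 6 and 4 without class 1 replicate 1 or 2 and to 5 and 6 without class 3 replicate 1 or 2. Pcna (0.02) and E2f1 (−0.14) overlapped and did not pass. All 29 mitosis genes were higher (median 1.15). Progenitor markers summed to 6583 to 8193 CPM in class 3 and 871 to 1184 CPM in class 1. Most of this was the granule genes Mpo (medians of 3756 and 446 CPM), Elane (1894 and 224 CPM), Prtn3 and Ctsg. Kit, Cd34, Myb and Gata2 were higher in class 3 too, while Flt3 (20.9 to 29.4 against 40.7 to 72.2 CPM), Sox4 and Meis1 were lower. Neutrophil markers summed to 6635 to 10874 and 817 to 1728 CPM. The sum of the monocyte markers went the other way, at 28929 to 32900.5 and 60207 to 64508 CPM. Most of it was Lyz2 (medians of 18303 and 48494 CPM). F13a1 (medians of 5253 and 3807 CPM), Irf8 (1524 and 945 CPM) and Spn were higher in class 3. Ly6c2 and Klf4 overlapped, and the other listed monocyte markers were lower in class 3. The sum of the dendritic cell markers was also lower in class 3, at 298 to 618 and 11563 to 11735.5 CPM. Most of it was Cd74 (medians of 276 and 11080 CPM), and Zbtb46 and Xcr1 overlapped. What part these markers have in the result was not tested.

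Class 4 exceeded class 1 in 12 members, with 0 lower (10.2% of all genes higher, 15% lower) and a median of 0.44. Dut stood at 134 and 135 against 43.5 and 46.2 CPM (1.58, SE 0.145, adjusted p = 0.00042 by edgeR), Cdca7 at 163 and 148 against 53.2 and 57.5 CPM (1.49, SE 0.176, adjusted p = 0.00105), Gins2 at 35.6 and 50.6 against 18.6 and 21.1 CPM (1.12, SE 0.247, adjusted p = 0.0146) and Rfc4 at 84.9 and 96.7 against 41.7 and 42.1 CPM (1.11, SE 0.199, adjusted p = 0.00596). The groups did not overlap in these genes. The count was 4 without class 1 replicate 1 and 5 without class 1 replicate 2. Of 29 mitosis genes tested 1 passed, Cks2, a subunit of cyclin-dependent kinases (1.14, higher in class 4), with a list median of −0.10. Class 4 stood apart from class 1 in markers. Progenitor markers summed to 10463 to 11495 against 871 to 1184 CPM, mostly the granule genes Mpo (medians of 6257 and 446 CPM), Elane, Prtn3 and Ctsg. Flt3 was lower in class 4 (17.9 to 23.9 against 40.7 to 72.2 CPM), Meis1 overlapped, and the other listed progenitor markers were higher. Neutrophil markers summed to 51342 to 72184 against 817 to 1728 CPM. B cell progenitor markers summed to 2446 to 3078 against 330 to 353 CPM, and T and NK cell markers to 397 to 405 against 75.8 to 108 CPM. Erythroid markers summed to 439 to 579 against 24.3 to 29.4 CPM, all 12 detected in class 4. The sum of the monocyte markers went the other way, at 19592 to 19829 against 60207 to 64508 CPM. Most of it was Lyz2 (medians of 15184 and 48494 CPM). Spn was higher in class 4 (59.3 to 64.5 against 49.2 to 54.1 CPM), and the other listed monocyte markers were lower. The sum of the dendritic cell markers was also lower in class 4, at 4100 to 4667 against 11563 to 11735.5 CPM. Most of it was Cd74 (medians of 4086 and 11080 CPM). Tcf4 was higher in class 4, and Siglech, Zbtb46 and Xcr1 overlapped. The part of all these markers in the result was not tested.

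Against class 2, 37 members were higher in class 3 (11.8% of all genes higher) and 38 in class 4 (19.5%), with medians of 3.03 and 2.64. Rrm2 rose most in class 3 by 4.30 (SE 0.144), followed by Tk1 (4.23), Orc1 (4.2) and Pole (4.09), with adjusted p of 0.000778 or less by edgeR. In class 4 Orc1 led with 5.06 (SE 0.539; 11.9 and 17.3 CPM), followed by Prim1 (4.22), Rrm2 (4.005) and Cdca7 (3.91). Ung did not pass in either, and E2f1 did not pass in class 3 (0.64, adjusted p = 0.0615). These comparisons share the class 2 libraries. Progenitor markers summed to 6583 to 8193 CPM in class 3, 10463 to 11495 CPM in class 4 and 187 to 211 CPM in class 2. In class 3 and class 4 most of this was the granule genes Mpo, Elane, Prtn3 and Ctsg. Flt3 went the other way, with medians of 25.2, 20.9 and 73.4 CPM in the same order. Neutrophil markers summed to 6635 to 10874, 51342 to 72184 and 1063 to 1506 CPM in the same order. The sum of the monocyte markers went the other way, at 28929 to 32900.5, 19592 to 19829 and 73564 to 75887 CPM. Most of it was Lyz2 (medians of 18303, 15184 and 59828 CPM). Irf8 was higher in class 3 and class 4 than in class 2 (medians of 1524, 786 and 687 CPM). Ly6c2, F13a1 and Spn were higher in class 3 than in class 2, and the other listed monocyte markers were lower. What part these markers have in the result was not tested.

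Between class 4 and class 3, 2 members were higher in class 4 (13% of all genes higher) and 8 lower (15.7% of all genes lower), with a median of −0.25. Mcm10 stood at 40.5 and 28.0 CPM in class 4 and 90.7 and 81.5 CPM in class 3 (−1.33, SE 0.21, adjusted p = 0.00321 by edgeR), and Pola1 at 37.0 and 33.9 against 87.6 and 82.6 CPM (−1.26, SE 0.21, adjusted p = 0.00398). Cdc45 (−1.14, SE 0.192) and Rrm1 (−1.05, SE 0.2) were lower too, while Dut (0.60, adjusted p = 0.0165 by edgeR) and Cdca7 (0.63, adjusted p = 0.0298) were higher. The remaining lower members were Mcm5, Rfc5, Tk1 and Tyms. Groups did not overlap in any of these 10 genes, but only 5 were called without class 3 replicate 1. Of 29 mitosis genes 27 were lower in class 4, with a median of −1.23. Neutrophil markers summed to 51342 to 72184 CPM in class 4 and 6635 to 10874 CPM in class 3. B cell progenitor markers summed to 2446 to 3078 and 53.9 to 63.1 CPM, and monocyte markers to 19592 to 19829 and 28929 to 32900.5 CPM. Of the monocyte markers, Nr4a1 (441 to 452 against 109 to 143 CPM), Treml4 and Cd36 were higher in class 4. Ace and Cd14 overlapped, and the other listed monocyte markers were lower. What part these markers have in the result was not tested.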

How the data were processed

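RNA of 62 libraries was extracted with RNeasy and made into NEB libraries, per the labels' protocols. The authors deposited raw read counts per gene, for which the submitters' processing notes name the build mm9, the aligner STAR (2.7.3a) and the counter HTSeq (0.6.0). Strand setting and annotation release are not given in the sources used here, so reads of antisense genes and of close copies, such as pseudogenes of Pcna, may be included. A further 1 column, which matches none of the labelled samples, stayed out of every step.

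Under R 4.3.3, edgeR 4.0.16 (with limma 3.58.1) tested the counts: filterByExpr with a minimum count of 10, TMM scaling, 2-sided quasi-likelihood F tests, and Benjamini-Hochberg adjustment over all genes tested, with a threshold of 0.05. All 39 members passed the filter in each fit. Clone libraries (48) were fitted with clone as a block, the subsets (6 libraries, 3 residual degrees of freedom) and the classes (8 libraries, 4 residual degrees of freedom) each in 1 fit. SE is the log2 fold change divided by the square root of F. A prior count of 2 entered log2 CPM. For correlations the clone pairing was permuted 100000 times, 2-sided (Python 3.11.15, pandas 2.3.3, numpy 2.4.6). The edgeR and correlation steps were first tested on simulated data. Depth per library is given in the report, and members with few counts carry larger SEs.

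The members, the other lists, the tests and the rule for naming genes were chosen with earlier results of these data known. The rule named the 2 called members of each role with the largest change, members moving against the rest, up to 4 members per other test, up to 2 genes a list and direction, and Mcm2, Mcm5, Pcna, Rrm2 and Ccne1 in every group. Genes named beyond it were chosen after their values were seen. One gene that the rule names is not reported here. The alternatives were DESeq2 1.42.0, its size factors, no filter, a minimum count of 50, each clone set alone, the fit with or without a block, rho, set-centred values and leaving out replicates or clone 21.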

Additional observations from a re-analysis of the deposited data

Results flagged for a closer look

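The change of Rfc5, a subunit of the clamp loader, in monocytic against progenitor libraries differed between clones 15 to 25 and clones 1 to 13 by 0.949 on the log2 scale (edgeR quasi-likelihood test of the difference, adjusted p = 0.0258). It fell by 1.92 in clones 1 to 13 and by 0.95 in clones 15 to 25, and was lower in all 24 clones. Progenitors of clones 15 to 25 started lower (medians of 88.5 against 164 CPM). Median depth of clones 1 to 13 and clones 15 to 25 was 26.0 and 3.18 M in monocytic libraries. In progenitors it was 14.7 and 12.5 M. Set and depth cannot be told apart in the monocytic libraries.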

How the results depend on the processing

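Of the counts and levels above, 54 alternatives gave the same result and 11 moved, where a count within 1.5 times that reported and a level within 1 SD between replicates were taken as the same. DESeq2 called 4 members for intermediate against classical, 25 for nonclassical against classical and 17 for nonclassical against intermediate monocytes, where edgeR called 0, 7 and 0. The clone effect of 1 member became 0 in clones 1 to 13, 0 in clones 15 to 25 and 0 without clone 21. The 2 members of the correlation test became 0 with DESeq2 size factors, 1 with rho, 0 centred on the clone set and 0 without clone 21. The class 1 level moved from 5.88 to 5.84 with DESeq2 size factors, more than its SD of 0.03, and then lay below that of intermediate monocytes, which went from 5.86 to 5.97. The cause of these moves was not tested. Leaving out 1 library at a time gave 31 to 33 members for class 2 against class 1, 4 to 6 for class 3 against class 1, 37 for class 3 against class 2, 4 to 13 for class 4 against class 1, 38 for class 4 against class 2 and 5 to 11 for class 4 against class 3. It gave 0 to 9 for nonclassical against classical and 0 for the other subset comparisons. These fits assume that the lone sample varies like the other groups. Of the alternatives for single genes 275 gave the same call, 11 weaker, 2 stronger and 0 reversed, and of those without 1 library 110 gave the same call and 26 weaker.

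In the maturation comparison, 31 members fell without the replicate block (pairing by clone) and 31 without clone 21, against 32. In subsets and classes, no label ties same-numbered libraries and each group has only 2, so they were taken to share only a number, although deviations of equal numbers correlated at 0.18 to 0.38 among subsets (−0.01 to 0.07 among classes). With the replicate number as a block (replicate block), members called were 36 for class 2 against class 1, 18 for class 3 and 12 for class 4 against class 1, 37 for class 3 and 38 for class 4 against class 2, 11 for class 4 against class 3, 7 for nonclassical against classical, and 0 for the other subset comparisons. With 2 libraries a group and shallow clones 15 to 25, small changes of weakly expressed members could not be detected.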
